A study of Mus musculus with 6 samples.

Results

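The genes described here are 53 enzymes and complex subunits that write, erase or read marks on DNA and histones, measured in B16-F1 and D5.1G4, which are 2 melanoma lines of the mouse. They were picked by symbol, and array probes were assigned to them through the RefSeq accession that each probe carries. All 53 had at least 1 probe, with 78 probes between them, among 20659 genes named on the array in the same way. B16-F1 is a line of the B16 melanoma of C57BL/6 mice; the labels call D5.1G4 a melanoma line and say no more of its origin, and neither line was treated or carries a stated engineered allele. Cells of each line were seeded at 1000000 per well in RPMI-1640 with 10% serum, grown for 24 h to a confluence of 75% to 95%, and their total RNA was treated with DNase, labelled with Cy3 and hybridised to one-colour Agilent arrays, 3 per line. The series set out to compare melanomas of different tumorigenicity, with D5.1G4 as the reference, so each difference below is B16-F1 minus D5.1G4 in log2 units. The labels number the replicates but leave unsaid whether each came from its own culture. P-values here therefore measure only the spread between these arrays, which may be technical. Each line is 1 cell line, so the groups describe these lines and not melanomas of high or low tumorigenicity.

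DNA methyltransferases add methyl groups to cytosines, mostly at CG dinucleotides, and TET dioxygenases oxidise those groups. Polycomb complexes, histone methyltransferases and deacetylases are mainly known for repressing genes, while acetyltransferases and the ATP-driven SWI/SNF remodellers are mainly known for opening chromatin. Many of these enzymes are mutated or misregulated in melanoma and other cancers.

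Each array held 43020 spots that were not controls. Of these, 53.4% to 54.4% were well above background on 4 arrays, and 62.0% and 61.7% on B16-F1 replicates 2 and 3, which were scanned together. No spot was saturated. Correlations within B16-F1 ran from 0.983 to 0.990, those within D5.1G4 from 0.986 to 0.993, and those across the lines from 0.941 to 0.957. The 3 scan times did not match the lines: scan 1 held B16-F1 replicates 2 and 3, scan 2 held B16-F1 replicate 1 with D5.1G4 replicates 2 and 3, and scan 3 held D5.1G4 replicate 1. All 7 melanocyte markers were well above background on every array, with a summed level (linear, the array's 75th percentile being 1) of 448 to 565 in B16-F1 and 567 to 794 in D5.1G4. Summed levels of fibroblast, leukocyte, endothelial and keratinocyte markers were at most 2.14. Of the 6 fibroblast markers, Pdgfra, Col3a1, Dcn and Dpt were well above background on no array and Lum on 1. The other, Pdgfrb, was well above background on all 6 and called lower in B16-F1, at -3.33 (10.1-fold, adjusted p = 0.000355), and the list's summed level was 0.0713 to 0.126 in B16-F1 and 0.413 to 0.494 in D5.1G4. The leukocyte markers Cd3e, Itgam and Csf1r, the endothelial markers Pecam1, Vwf and Kdr and the keratinocyte markers Krt5, Krt14 and Trp63 were well above background on all arrays, with differences from -0.34 to 0.83 and adjusted p of 0.164 or more. Ptprc was so on 2 B16-F1 arrays and Cd79a on 1, and Cdh5, Tek, Epcam and Dsp on none. The part of such cells in the results was not tested. Fewer cells of a type and less RNA per cell cannot be told apart in such bulk samples.

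The members differed little between the lines. A gene was called when limma gave a Benjamini-Hochberg adjusted p of 0.05 or less over all features and the fold was 2 or more, after the threshold in the series' design text. By this rule 0 members were called higher in B16-F1 and 2 were called lower, the SWI/SNF subunits Smarca2 and Arid1a, of 51 that could be tested (3.92%). The call of Arid1a rests on 1 D5.1G4 array, the only array of its scan, since its spots on the other 2 were set aside as outliers. With them kept the difference was -0.96, under 2-fold, and 1 member, Smarca2, was called. The same counts, 0 and 2, came from an unadjusted p of 0.05 or less with the same fold. Among all 18451 features tested, 15.2% were called, 6.29% higher and 8.89% lower. A feature is a gene or a single probe that matched no gene, so these shares are not shares of genes alone. With the adjusted p alone and no fold threshold, 3 members were higher (Hdac8, Kdm2b and Kdm6b, against 14.5% of all features) and 10 were lower (against 20.4% of all features: Tet2, Ezh2, Eed, Kdm4c, Ehmt1, Hdac1, Sirt1, Smarca2, Smarca4 and Arid1a). Together these 13 were 25.5% of the members tested, against 34.9% of all features. The median difference of the members was -0.12, against -0.00 for all features, with 19 members above 0 and 32 below. Their median absolute difference was 0.27 against 0.43, and the largest was 1.15 against 9.58. For the features well above background on all 6 arrays these were 0.39 and 6.66, and 13.2% of them were called. For 38 of 51 members (74.5%) the whole 95% interval of the difference lay within 2-fold, against 53.7% of all features and 60.6% of the features well above background on all 6 arrays. Arrays of the lines did not overlap for 18 of the 44 members measured on all 6 (40.9%), against 50.7% of all features so measured. The share was 52.8% for those well above background on all 6 arrays. These shares describe the set and are not a test of it.

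**Figure D1:**
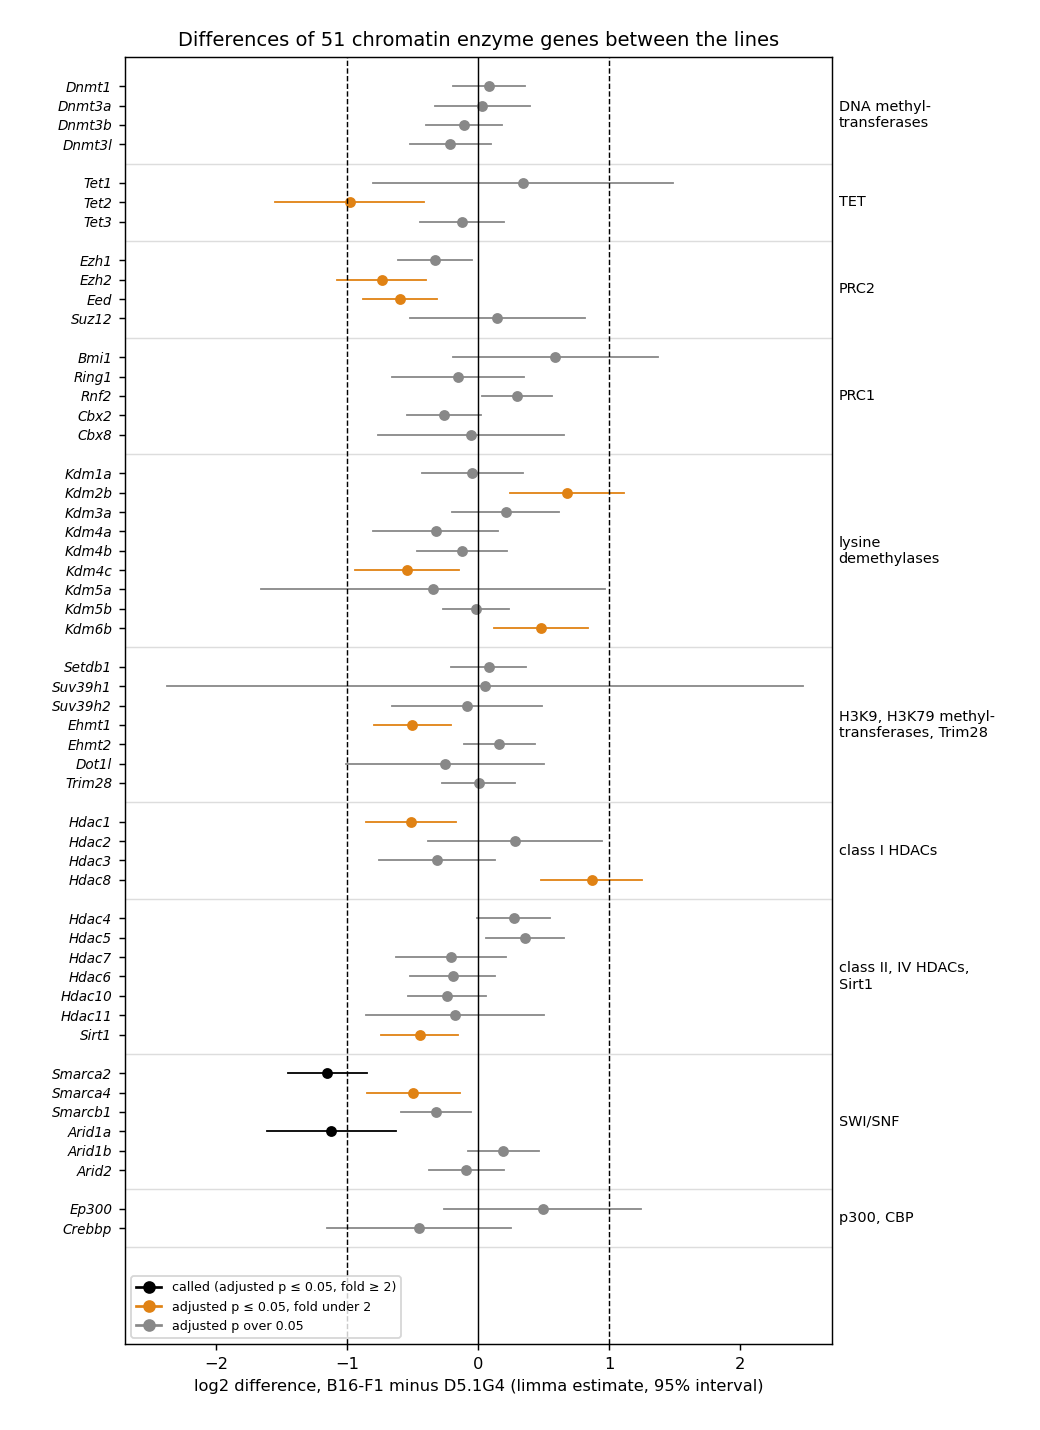
Difference of each tested member between the lines, B16-F1 minus D5.1G4 in log2 units, by enzyme class, with its 95% interval from limma; black marks called members, orange those past the adjusted p but under 2-fold, grey the rest. Only Smarca2 and Arid1a lie past the 2-fold lines with an adjusted p that passes, both lower in B16-F1.

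**Figure D2:**
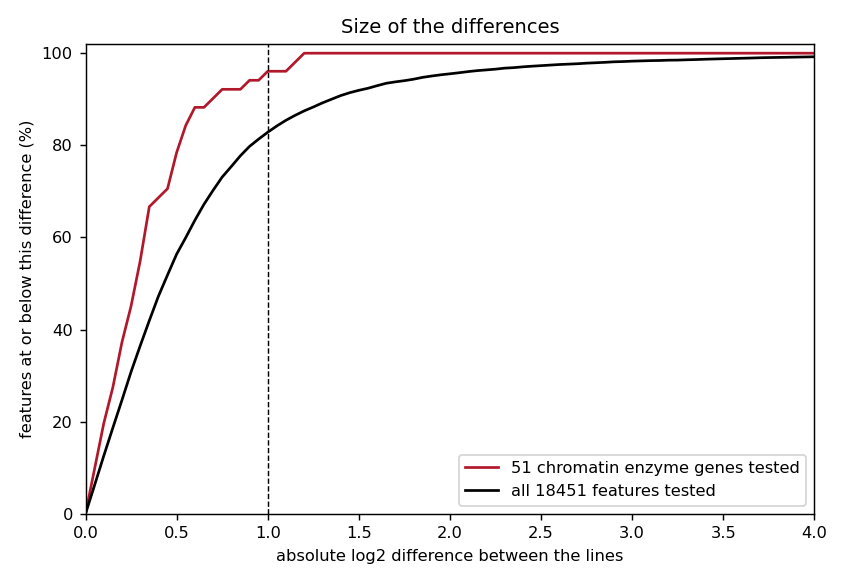
Cumulative share of features (vertical axis) by absolute log2 difference (horizontal axis) for the 51 tested members and for all 18451 features tested. The members' curve lies above that of all features, with median absolute differences of 0.27 and 0.43.

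The scan times limit these counts. With scan time as a block, the 11 of those 13 members that could be fitted kept their direction, and 1 of them, Smarca2, kept an adjusted p of 0.05 or less. In that fit 1 of 47 members (2.13%) and 19.9% of all features passed the same adjusted p, against 25.5% and 34.9% without the block. The scan block rests on scan 2, the only one that held both lines, with 1 B16-F1 array. Arid1a and Hdac1 could not be fitted with it.

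Promoter sequences are shown for 5 members, Smarca2, Tet2, Ezh2, Hdac8 and Kdm2b, each with the largest difference of its class and chosen after their values were seen, since CG dinucleotides are the sites that the DNA methyltransferases and TET enzymes among them act on. RefSeq's table for build GRCm38.p6 held windows from 250 bases before to 50 after the start for 45 of the 53 members, 64 windows in all. At least 20 CG dinucleotides stood in 43 of these windows (67.2%), against 26.5% of 32851 windows of the same length in the table, and the medians were 28 and 7. The motif searched was CG, which reads the same on both strands. Capitals mark every CG.

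Smarca2, chr19:26604910-26605209, + strand, 29 CG: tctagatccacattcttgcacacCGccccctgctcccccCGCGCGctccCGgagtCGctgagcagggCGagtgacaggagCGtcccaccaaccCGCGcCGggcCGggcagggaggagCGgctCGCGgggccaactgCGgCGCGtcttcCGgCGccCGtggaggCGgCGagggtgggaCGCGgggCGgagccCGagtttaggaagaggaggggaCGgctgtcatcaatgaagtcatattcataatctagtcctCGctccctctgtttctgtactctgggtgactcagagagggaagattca
Tet2, chr3:133544341-133544640, - strand, 57 CG: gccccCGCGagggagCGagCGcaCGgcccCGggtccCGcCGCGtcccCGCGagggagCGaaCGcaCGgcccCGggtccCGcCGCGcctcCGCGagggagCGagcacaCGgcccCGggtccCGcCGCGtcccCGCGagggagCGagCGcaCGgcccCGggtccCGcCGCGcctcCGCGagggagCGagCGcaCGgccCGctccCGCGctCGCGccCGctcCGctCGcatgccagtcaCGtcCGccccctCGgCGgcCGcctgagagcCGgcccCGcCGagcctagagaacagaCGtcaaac
Ezh2, chr6:47594981-47595280, - strand, 31 CG: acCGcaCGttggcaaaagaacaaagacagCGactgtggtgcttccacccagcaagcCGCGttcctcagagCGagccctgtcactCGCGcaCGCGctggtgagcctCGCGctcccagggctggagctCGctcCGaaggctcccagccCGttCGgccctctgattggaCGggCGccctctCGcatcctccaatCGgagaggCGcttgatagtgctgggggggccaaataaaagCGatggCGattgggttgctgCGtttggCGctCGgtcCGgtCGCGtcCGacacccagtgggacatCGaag
Hdac8, chrX:102505109-102505408, - strand, 6 CG: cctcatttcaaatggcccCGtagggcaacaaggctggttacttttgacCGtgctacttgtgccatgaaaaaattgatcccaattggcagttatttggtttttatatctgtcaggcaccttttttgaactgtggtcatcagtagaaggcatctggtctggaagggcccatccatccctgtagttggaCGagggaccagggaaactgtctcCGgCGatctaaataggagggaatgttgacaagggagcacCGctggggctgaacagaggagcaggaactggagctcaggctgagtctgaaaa
Kdm2b, chr5:122989050-122989349, - strand, 28 CG: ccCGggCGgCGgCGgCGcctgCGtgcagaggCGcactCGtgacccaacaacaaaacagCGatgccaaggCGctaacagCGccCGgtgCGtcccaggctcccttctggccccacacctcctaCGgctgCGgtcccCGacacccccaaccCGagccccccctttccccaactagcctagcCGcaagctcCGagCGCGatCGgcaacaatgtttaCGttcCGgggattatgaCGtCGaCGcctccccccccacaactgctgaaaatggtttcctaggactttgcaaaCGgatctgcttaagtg
Kdm2b, chr5:122900301-122900600, - strand, 49 CG: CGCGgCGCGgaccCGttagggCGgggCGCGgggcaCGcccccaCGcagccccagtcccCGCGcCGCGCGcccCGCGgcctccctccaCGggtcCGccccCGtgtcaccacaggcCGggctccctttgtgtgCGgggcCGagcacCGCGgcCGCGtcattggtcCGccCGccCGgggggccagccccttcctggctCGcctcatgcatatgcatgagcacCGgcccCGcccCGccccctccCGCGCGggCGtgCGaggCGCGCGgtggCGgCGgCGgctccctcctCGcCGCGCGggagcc

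The windows differ in CG content: 57 in that of Tet2 and 6 in that of Hdac8, with both Kdm2b windows between them. A CG count is a description of the sequence and says nothing of its methylation, which was not measured.

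The DNA methyltransferases showed no member past the threshold. Dnmt1, which copies methylation onto newly made DNA, stood at 1.79, 1.83 and 1.89 in B16-F1 and at 1.86, 1.63 and 1.77 in D5.1G4 (log2 relative to the array's 75th percentile, as are all levels below). The lines overlapped, and the difference was 0.08 (95% interval -0.19 to 0.35). The de novo enzymes Dnmt3a and Dnmt3b differed by 0.03 (-0.33 to 0.39) and -0.11 (-0.40 to 0.18). Dnmt3l, their catalytically inactive cofactor, had the largest difference of the class, -0.21, from -3.47, -3.17 and -3.38 against -3.06, -3.09 and -3.24 (SE 0.13, adjusted p = 0.244). All 4 intervals lay within 2-fold.

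Of the TET dioxygenases, Tet2 was lower in B16-F1 by just under 2-fold. Its values were -1.48, -1.45 and -1.13 in B16-F1 and 0.09, -0.45 and -0.74 in D5.1G4. The lines did not overlap, and D5.1G4 replicate 1 was the highest array. The difference was -0.98 (SE 0.23, 1.98-fold, adjusted p = 0.0208), short of the fold threshold, and it was -0.89 with scan time as a block (adjusted p = 0.0601). A second Tet2 probe differed by -0.94 (adjusted p = 0.0957). Tet1 and Tet3 differed by 0.34 (-0.81 to 1.49) and -0.12 (-0.44 to 0.19), and the interval of Tet1 includes changes past 2-fold.

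Polycomb repressive complex 2, which methylates histone H3 at lysine 27, had 2 of its 4 members lower in B16-F1 by the adjusted p alone, where 20.4% of all features were lower, and none past 2-fold. Ezh2, its main catalytic subunit, read 3.50, 3.60 and 3.40 in B16-F1 against 4.29 and 4.19 in D5.1G4, where the spot of replicate 3 was set aside as an outlier (3.91 if kept). No B16-F1 array reached a D5.1G4 array, and the difference was -0.74 (SE 0.13, 1.67-fold, adjusted p = 0.0113). Eed, which binds the methylated histone and is needed for activity, read 2.92, 2.91 and 2.87 against 3.65, 3.44 and 3.40, a difference of -0.60 (SE 0.12, 1.51-fold, adjusted p = 0.00967). Here too the lines did not overlap. The alternative catalytic subunit Ezh1 and the scaffold Suz12 differed by -0.33 (adjusted p = 0.0725) and 0.14 (adjusted p = 0.713). With scan time as a block, Ezh2 and Eed differed by -0.69 (adjusted p = 0.123) and -0.50 (adjusted p = 0.0900). Among 20 tested genes of a proliferation list, 0 were called higher and 2 lower (Ccne1, -1.33, and Mki67, -1.02), which is 10% against 15.2% of all features. Their median difference was -0.34 and their summed level 235 to 262 in B16-F1 against 338 to 347 in D5.1G4. The part of proliferation in the Polycomb values was not tested.

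Polycomb repressive complex 1, which ubiquitinates histone H2A, had no member past the threshold of 5 tested. Its ring subunit Bmi1 had the largest difference, 0.59, from 3.61, 3.57 and 3.60 in B16-F1 against 3.51, 2.26 and 3.24 in D5.1G4. D5.1G4 replicate 2 was low, and the adjusted p was 0.209. Another Bmi1 probe read 2.43, 2.54 and 2.35 against 2.09, 1.94 and 1.85, a difference of 0.48 (adjusted p = 0.0252). The E3 ligases Rnf2 and Ring1 differed by 0.29 (adjusted p = 0.0877) and -0.15, and the chromodomain readers Cbx2 and Cbx8 by -0.26 and -0.06. Cbx7, another such reader, was well above background on no array and was not tested.

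Of 9 histone lysine demethylases, 2 were higher and 1 lower by the adjusted p alone, and none passed 2-fold. By that limit 14.5% of all features were higher and 20.4% lower. Kdm2b, a demethylase that also brings a Polycomb complex to CG islands, read 2.04 and 1.69 in B16-F1, with replicate 2 set aside as an outlier (1.66 if kept), and 1.06, 1.22 and 1.30 in D5.1G4. All B16-F1 arrays were higher, by 0.67 (SE 0.17, 1.60-fold, adjusted p = 0.0333). Another probe of the same accession read -2.20, -2.16 and -1.67 against -3.89, -3.85 and -4.15, which is 1.96 (SE 0.18, 3.88-fold, adjusted p = 0.000712). The RefSeq table holds 4 windows for Kdm2b, of which the outer 2 are shown above, and which start either probe reads is not given in the files. Kdm6b, which removes methyl groups from lysine 27 of histone H3, read -0.95, -1.11 and -0.79 against -1.22, -1.49 and -1.56, a difference of 0.48 (adjusted p = 0.0477). Kdm4c, an H3 lysine 9 demethylase, read 0.05, -0.07 and 0.02 against 0.72 and 0.38, with D5.1G4 replicate 2 set aside (0.31 if kept), a difference of -0.55 (adjusted p = 0.0477). With scan time as a block these 3 differed by 0.79, 0.58 and -0.32, with adjusted p of 0.0616, 0.114 and 0.335. Kdm5b, which acts on lysine 4 of histone H3, differed by -0.02 (-0.27 to 0.23), while its other probe read -2.48, -2.33 and -2.62 against -2.84, -2.92 and -3.08, a difference of 0.47 (adjusted p = 0.0354). A further Kdm4a probe differed by -0.86 (adjusted p = 0.0106), where the probe that stands for the gene differed by -0.33 (adjusted p = 0.232). The further probe was dim, at -5.48, -5.61 and -5.50 against -4.69, -4.37 and -4.96. It was well above background on 2 B16-F1 arrays and 3 D5.1G4 arrays. Differences of the remaining 4 members ran from -0.35 for Kdm5a, whose interval of -1.66 to 0.96 leaves changes past 2-fold, to 0.21 for Kdm3a.

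Among the methyltransferases of H3 lysine 9 and 79 and Trim28, 7 members together, Ehmt1 was the member that passed the adjusted p. Ehmt1 and Ehmt2 form a dimer that places mono- and dimethyl marks on lysine 9. Ehmt1 read 1.03, 1.25 and 1.18 in B16-F1 and 1.78, 1.55 and 1.65 in D5.1G4, without overlap, a difference of -0.50 (SE 0.12, 1.42-fold, adjusted p = 0.0217). Another Ehmt1 probe differed by -0.05 (adjusted p = 0.856), and with scan time as a block the first differed by -0.57 (adjusted p = 0.0736). Ehmt2 differed by 0.16, Setdb1 by 0.08 and Trim28, which brings Setdb1 to silenced repeats, by 0.00 (-0.28 to 0.28). Suv39h2 and Dot1l, the lysine 79 enzyme, differed by -0.09 and -0.26. Suv39h1 read -6.88, -4.79 and -3.69 against -6.34, -3.63 and -5.53, was well above background on 2 B16-F1 arrays and 1 D5.1G4 array, and its interval of -2.38 to 2.48 leaves its difference unresolved.

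Among class I histone deacetylases, Hdac8 was higher and Hdac1 lower in B16-F1 by the adjusted p alone. By that limit 14.5% of all features were higher and 20.4% lower. Hdac8 read -1.32, -1.18 and -1.21 in B16-F1 and -2.40, -1.93 and -1.98 in D5.1G4. The lines did not overlap, and the difference was 0.87 (SE 0.16, 1.82-fold, adjusted p = 0.00797). Its other probe read -3.97, -3.52 and -3.21 against -4.89, -4.41 and -4.49, a difference of 1.03 (SE 0.23, 2.04-fold, adjusted p = 0.0169). Hdac1, a core enzyme of the NuRD and Sin3 corepressors, read 4.38 and 4.18 with B16-F1 replicate 1 set aside (4.34 if kept), against 4.72, 4.81 and 4.85, a difference of -0.52 (SE 0.13, adjusted p = 0.0367). Other tested Hdac1 probes differed by -0.21 and -0.33 (limma's adjusted p = 0.597 and 0.152). Hdac2 and Hdac3 differed by 0.28 and -0.32, with intervals of -0.39 to 0.95 and -0.76 to 0.12. With scan time as a block Hdac8 differed by 0.63 (adjusted p = 0.0540), and Hdac1 could not be fitted.

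The class II and IV deacetylases and the NAD-dependent deacetylase Sirt1 all had intervals within 2-fold in the 7 members tested. Sirt1 had the largest difference, from 0.45, 0.46 and 0.52 in B16-F1 to 1.1, 0.80 and 0.88 in D5.1G4. The lines did not overlap, and the difference was -0.45 (SE 0.12, 1.36-fold, adjusted p = 0.0327), or -0.39 with scan time as a block (adjusted p = 0.159). Hdac5 differed by 0.36 (adjusted p = 0.0691) and Hdac4 by 0.27 (adjusted p = 0.122). Hdac6, Hdac7, Hdac10 and Hdac11 differed by -0.20, -0.21, -0.24 and -0.18. Hdac9 was well above background on 2 B16-F1 arrays and no D5.1G4 array, so it was not tested.

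**Figure D3:**
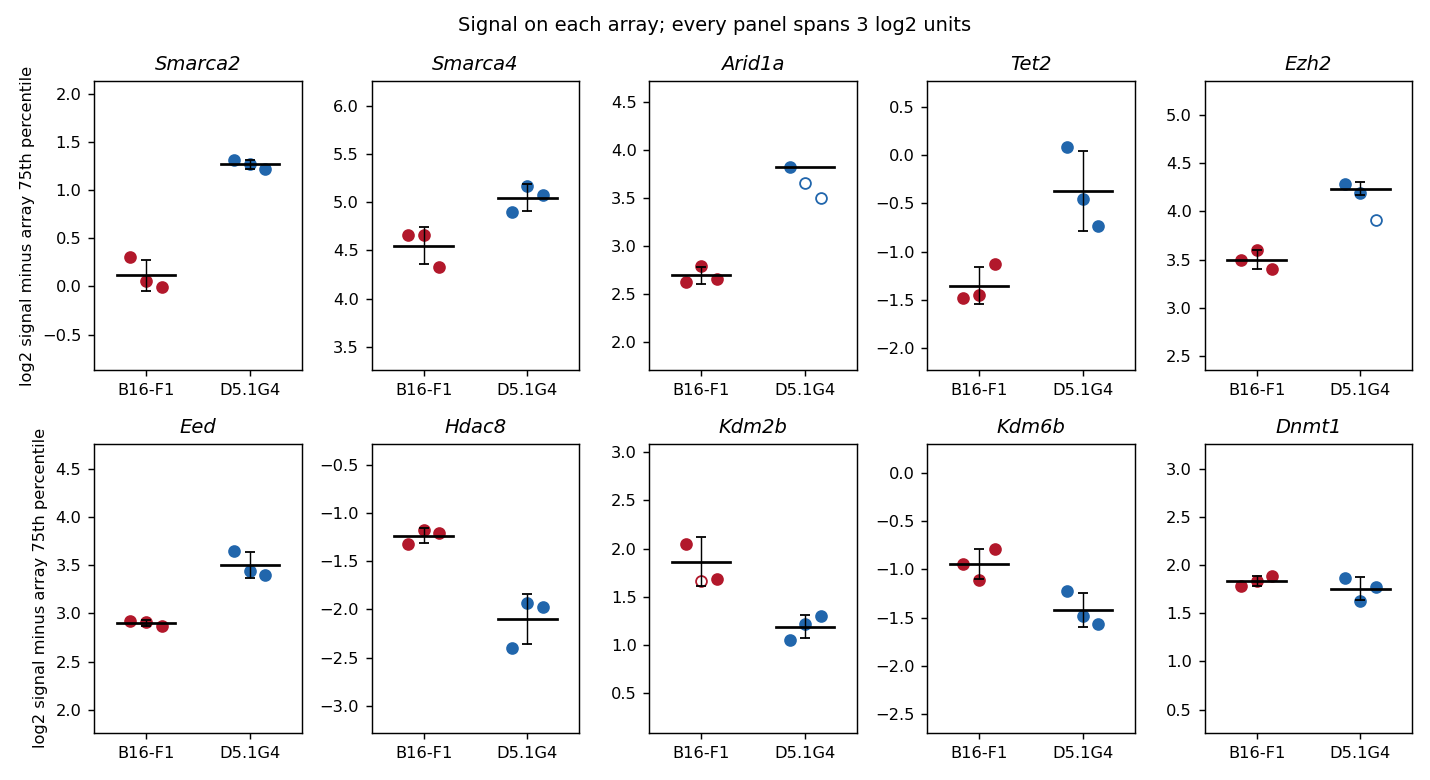
Level of members on each of the 6 arrays, as log2 signal relative to the array's 75th percentile, as points by line; horizontal lines are means, bars are SDs and open circles are outlier spots left out of both. Smarca2 lies between -0.01 and 0.30 in B16-F1 and between 1.22 and 1.31 in D5.1G4.

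Among SWI/SNF remodelling subunits, Smarca2 was called lower on 3 arrays against 3, and Arid1a on 3 against 1. Smarca2 (BRM) is an ATPase of the complex and an alternative to Smarca4 (BRG1). Its values were 0.30, 0.05 and -0.01 in B16-F1 and 1.31, 1.27 and 1.22 in D5.1G4, and the gap between the lines was wider than the range within either. The difference was -1.15 (SE 0.12, 2.22-fold, adjusted p = 0.00119). It was -0.95 with scan time as a block and within scan 2 (adjusted p = 0.0226 and 0.0332), under the fold threshold. Smarca4 read 4.66, 4.66 and 4.33 against 4.90, 5.17 and 5.07, a difference of -0.50 (adjusted p = 0.0414), while its other probe differed by 0.26 (adjusted p = 0.488).

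Arid1a, the DNA-binding subunit that defines one form of the complex, rests on fewer spots. It read 2.63, 2.80 and 2.66 in B16-F1 and 3.82 in D5.1G4 replicate 1, with the spots of D5.1G4 replicates 2 and 3 set aside as outliers (3.65 and 3.50 if kept). The difference was -1.12 (SE 0.18, 2.18-fold, adjusted p = 0.0133). With 1 value in D5.1G4, this SE and p take their spread from the B16-F1 arrays and limma's prior over all features, and assume that D5.1G4 varies alike. That D5.1G4 array was alone in scan 3, so line and scan time cannot be told apart in this difference. With scan time as a block Arid1a could not be fitted. With those spots kept, the difference was -0.96 (adjusted p = 0.00254), under 2-fold. Its other probe differed by -0.52 (adjusted p = 0.0839). Arid1b, the alternative subunit, differed by 0.19 (adjusted p = 0.242), Arid2, of a second form, by -0.09, and the core subunit Smarcb1 by -0.32 (adjusted p = 0.0666).

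The acetyltransferases p300 (Ep300) and CBP (Crebbp), close relatives that acetylate histones at enhancers, had no member past the threshold. Ep300 read -1.84, -1.70 and -1.11 in B16-F1 against -1.47, -2.40 and -2.26, a difference of 0.49 (-0.26 to 1.24, adjusted p = 0.271). Crebbp read 1.1, 1.20 and 0.63 against 0.90, 1.90 and 1.48, a difference of -0.45 (-1.15 to 0.25, adjusted p = 0.275). The lines overlapped for both, and the intervals include changes past 2-fold.

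Balance within related enzymes was compared as the log2 ratio of their probes on each array, in 10 pairs, of which 9 could be tested by an exact permutation test (2-sided). With 3 arrays against 3 this test cannot go below 0.1. The Smarca2 to Smarca4 ratio changed by -0.65 and the Ehmt1 to Ehmt2 ratio by -0.66 between the lines, each without overlap (exact p = 0.1, adjusted over the 9 pairs 0.45). Both ratios rest on the probe that stands for each gene. The other Smarca4 probe differed by 0.26 and the other Ehmt1 probe by -0.05. The Ezh1 to Ezh2 ratio changed by 0.37, with 3 arrays against 2 (exact p = 0.2). The Kdm4a to Kdm4c ratio changed by 0.25, with 2 arrays against 2 (exact p = 0.333). Neither of these overlapped between the lines, and each p is the lowest that its number of arrays allows. The other tested probe of Ezh1 differed by 0.00 and that of Kdm4a by -0.86. For single features measured on all 6 arrays, 50.7% did not overlap. No pair passed after adjustment, which this design does not allow.

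Different probes of a gene did not always give the same sign. Of 19 members with several probes, 16 had several that were tested, and the probes had 1 sign in 10 of these and opposite signs in 6 (Dnmt3b, Kdm5b, Smarca4, Suv39h2, Tet3 and, with a further probe at 0.00, Ezh1). Of the 18 further probes tested, 2 were called, those of Hdac8 and Kdm2b, both higher in B16-F1. These calls come from a separate limma fit over single probes, whose share called over all probes is not given here. In the main fit 15.2% of all features were called.

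**Figure D4:**
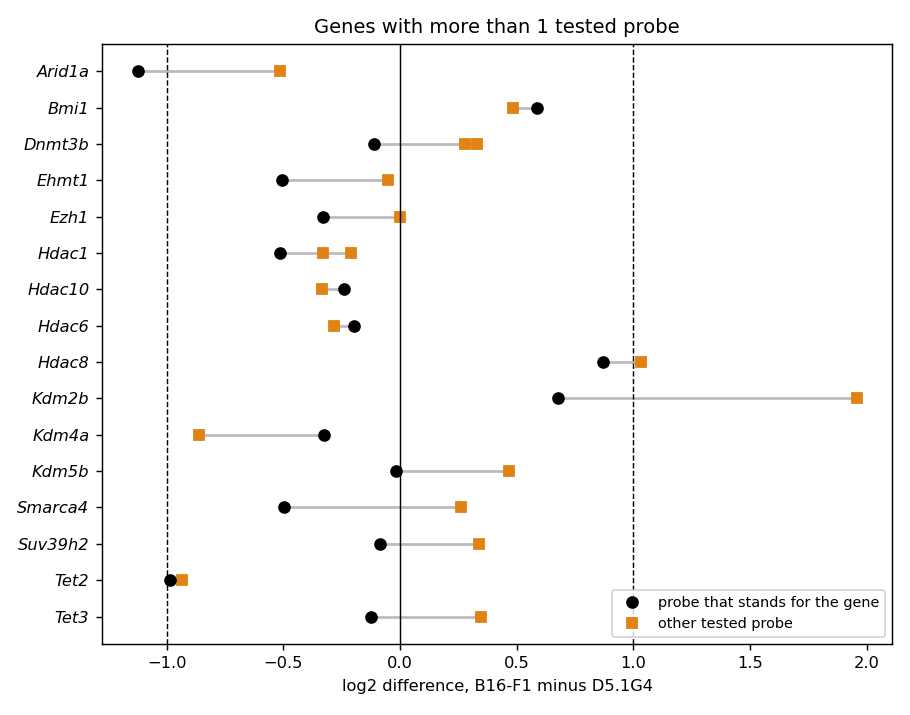
Log2 difference between the lines, B16-F1 minus D5.1G4, for each tested probe of the members with several tested probes, with the probe that stands for the gene marked. The further Kdm2b probe lies at 1.96 and that of Hdac8 at 1.03.

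Other chromatin genes, in 8 lists of 154 genes outside the members, gave 5 called higher and 9 called lower of 139 tested (10.1%), against 15.2% of all features, with a median of 0.03. The readers and cofactors of DNA methylation held 3 called genes: the methyl-CG readers Mbd1, at -1.05, and Zbtb33, at 1.16, and Gadd45a, at -1.02. Other Polycomb subunits held Pcgf5 (-1.04) and Phf19 (-1.01), and other histone methyltransferases held Kmt2d (-1.74), Prdm2 (-1.12) and Nsd1 (1.72). The deacetylase complex subunits held Rcor2 (-1.01) and Mta1 (2.04, adjusted p = 0.0497). Other remodellers held 2 called lower, Smarcc2 (-1.30) and Ss18 (-1.22), and 2 called higher, Pbrm1 (1.28) and Smarca1, at least 2.88-fold higher since it was not well above background in D5.1G4. Smarca1 could be tested only through B16-F1, the line where it is high. Lists of other demethylases, of acetyltransferases with bromodomain readers and of heterochromatin proteins had 0 called by limma. At an adjusted p of 0.05 or less stood 2, 6 and 1 of their 10, 16 and 9 genes tested. The share over all features was 34.9%.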

How the data were processed

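RNA of 3 samples per line was measured on Agilent mouse 4x44K v2 arrays. Per the file headers and the submitters' processing notes, the deposited intensity values are Agilent Feature Extraction 11.0.1.1 processed signals, already background-subtracted, with the deposited flags (other) for outlier spots, saturation and signal above background. The authors' deposited table of log2 normalized values served as an alternative; its normalization was not given in the sources used here. Log2 processed signals were taken minus each array's 75th percentile over spots that were not controls. Spots marked as non-uniform or population outliers were left out, and the remaining spots of each probe averaged. Probes were named through unversioned accessions in a RefSeq gene table: 27234 of 39429 probes (69.1%) matched 1 gene and 12195 none. The probe with the highest mean over the 6 arrays stood for a gene, and each probe that matched no gene was a feature of its own. Features well above background on at least 3 of 6 arrays were tested with limma 3.58.1 in R 4.3.3 (lmFit and eBayes), with Benjamini-Hochberg adjustment over all of them. Adjusted p of further probes came from a separate limma fit over all single probes that passed the same filter. The number of arrays limits the precision. Exact tests used SciPy 1.17.1. The fits were tested on simulated data.

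The text names every called member, the tested member with the largest difference in each class, members not tested and members with another tested probe of opposite sign at an adjusted p of 0.05 or less; of other lists it names at most 3 called genes, and 4 where all are given for the remodellers. Remaining members were named to fill their class. Members and lists were chosen with earlier results of these data known. A planned correction on mean signals used median signals (normexp, offset 50), and planned slide terms used scan time, since the files used here do not tell slides apart. Replicate numbers were taken as names: deviations of same-numbered arrays correlated at -0.39, -0.03 and -0.30. Alternatives were background correction, normalization, filters, probe choice, scan and replicate blocks, moderated variance and leaving out arrays.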

Additional observations from a re-analysis of the deposited data

Results flagged for a closer look

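Further probes of 2 members, which the comparison of genes did not use, passed both the adjusted p and the 2-fold threshold, while the probe that stands for the gene did not pass 2-fold. They are 2 of the 18 further probes tested, in a separate fit over single probes. In the main fit 15.2% of all features were called. The further Hdac8 probe (A_51_P481191) differed by 1.03 (SE 0.23, adjusted p = 0.0169 by limma), higher in B16-F1, beside 0.87 for the first. The further Kdm2b probe (A_55_P2065154) differed by 1.96 (SE 0.18, adjusted p = 0.000712), higher in B16-F1, beside 0.67 for the first.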

How the results depend on the processing

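Across 19 alternatives, 956 values of single members were recomputed: 941 kept their side of the threshold, 10 lost a call, 5 gained one and 0 called values reversed. In 16 members, none called and with a main difference of at most 0.35 in size, the sign changed somewhere. With normexp, 1251 features were called, 536 higher and 715 lower, with 1 member lower and 2 members (3.92%) at an adjusted p of 0.05 or less, against 12.2% of all features. Averaging a gene's probes gave 1 member higher (Kdm2b, 1.40) and 1 lower, with 2774 features called, 1192 higher and 1582 lower. Keeping outlier spots gave 1 lower, with 2788 features called. With the scan block, 0 members were lower, with 2578 features called. In that fit 1 of 47 members (2.13%) passed the adjusted p, against 19.9% of all features, and the median was -0.058. Within scan 2, with 1 B16-F1 array, the median was -0.058. Without the 2 B16-F1 arrays of scan 1, chosen after seeing the data and again leaving 1, it was -0.080. The median of all features was -0.15 in these 3 settings. With the replicate block, 1 member was lower, 3 (5.88%, against 22.2% of all features) passed the adjusted p and 2582 features were called. Leaving out each array in turn gave 1 member lower (without D5.1G4 replicate 1, where Arid1a has no value) to 3 (without D5.1G4 replicate 3), 6 to 8 at the adjusted p (11.8% to 16% of those tested, against 25.4% to 34.9% of all features), a median of -0.17 to -0.11 and 2531 to 3379 features called. Smarca2 fell under 2-fold with the scan block and within scan 2 (-0.95) and without the scan 1 arrays (-0.97). Arid1a lost its call with normexp (-1.21, adjusted p = 0.0508), the authors' values (-0.85), outlier spots kept (-0.96), averaged probes (-0.70), the replicate block (-1.19, adjusted p = 0.142) and with B16-F1 replicate 3 left out (-1.11, adjusted p = 0.0511). It was also lost without the 2 B16-F1 arrays of scan 1 (-1.19), and Arid1a had no value with the scan block or within scan 2. Tet2 passed with quantile normalization (-1.03), the authors' values, and with replicate 3 of D5.1G4 (-1.17) or of B16-F1 left out. The causes were not tested.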

Other observations

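Of 18 germline genes that promoter methylation is known to silence in somatic cells, 15 were well above background on no array and 3 could be tested. Ddx4, a germ-cell RNA helicase, was well above background on the 3 B16-F1 arrays and on none of D5.1G4, so its excess in B16-F1 is a bound, at least 1.51-fold. It could be tested only through the line where it is high, so no p-value is read for it. Tuba3a, an alpha-tubulin, was well above background on all 6 arrays and differed by -0.44 (SE 0.36, adjusted p = 0.377). Taf7l, a testis form of a general transcription factor subunit, read -0.80, -0.58 and -0.70 in B16-F1 against 0.58, 0.50 and 0.69 in D5.1G4, a difference of -1.28 (SE 0.12, adjusted p = 0.000681).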
